A study of Homo sapiens with 12 samples.

Results

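The loci described here had no reference identifier. They were put together from the sequencing reads by the StringTie transcript assembler, which gives such loci names beginning with MSTRG, and they were kept when their estimated counts summed to at least 60 over the 12 samples. This left 1710 of 1925 assembled loci, beside 58174 annotated genes in the same table of 60099 rows. Of the loci left out, 215 in number, the highest summed to 59, 58 and 58 counts, and several of those kept stood at exactly 60. The samples were rRNA-depleted, strand-specific RNA libraries from the head and neck squamous cell carcinoma lines Cal27 and HN30, which are established cell lines in culture. They received IFNα at 0, 20 or 200 ng/ml for 24 h, with 2 replicates each. In the sample titles the groups are control (A), low dose (B) and high dose (C), and again control (D), low dose (E) and high dose (F). Neither set of letters is tied to a named line in the labels, and the line sets are therefore written A-C and D-F. No label says whether replicates came from separate cultures, so the p-values measure the spread between these samples only, which may be technical.

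Interferon alpha binds its receptor on the cell surface, and the kinases JAK1 and TYK2 then pass the signal on to the nucleus. There a DNA element called the ISRE is bound and the interferon-stimulated genes are turned on. Many of those genes code for proteins that block viral replication or mark viral RNA. An assembler that finds reads outside the known exons can report a long non-coding RNA, an extended end of a known transcript, an intron kept in the RNA, a new isoform or an antisense transcript, and short reads alone do not always separate these.

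The position column put most of the 1710 loci on top of known genes. Of them 876 lay on the plus strand and 834 on the minus strand. Overlap was judged on the whole span of a locus, so a gene's exon may lie in a part that the assembled transcript skips. On their own strand the spans of 911 overlapped exons of an annotated gene and a further 485 lay wholly within introns. In all, 1396 loci shared strand and ground with a gene, and the word "unannotated" holds for the transcript rather than for the place. Another 53 overlapped a gene on the opposite strand only. No annotated gene overlapped the remaining 261 on either strand, but 83 of these had one within 5 kb. Among those 83, 24 pointed away from the neighbour, head to head, 23 lay upstream and 21 downstream of it on the same strand, and 15 faced it tail to tail. The last 178 loci were farther than 5 kb from any annotated gene, with a median distance of 27746 bases to the nearest. In the intronic class the assembled transcript took up a median of 85.8% of the span, against 7.9% for loci that overlapped exons and 20.1% for loci farther than 5 kb from a gene. The first contrast follows in part from the classes, since a long span is more likely to hold an exon. Median spans were 1710 bases for intronic loci and 15868 for loci over exons. The span ran from 257 to 510021 bases, and 149 loci overlapped another assembled locus on their strand. Newer gene models reach some of them, since 74 of the 314 loci without a same-strand gene in the table overlapped a RefSeq gene (GRCh38.p14) on their own strand. RefSeq entries and start windows on chromosome 8 were not used here, so the 80 loci on that chromosome, 17 of them among the 314, were not looked up.

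**Figure D1:**
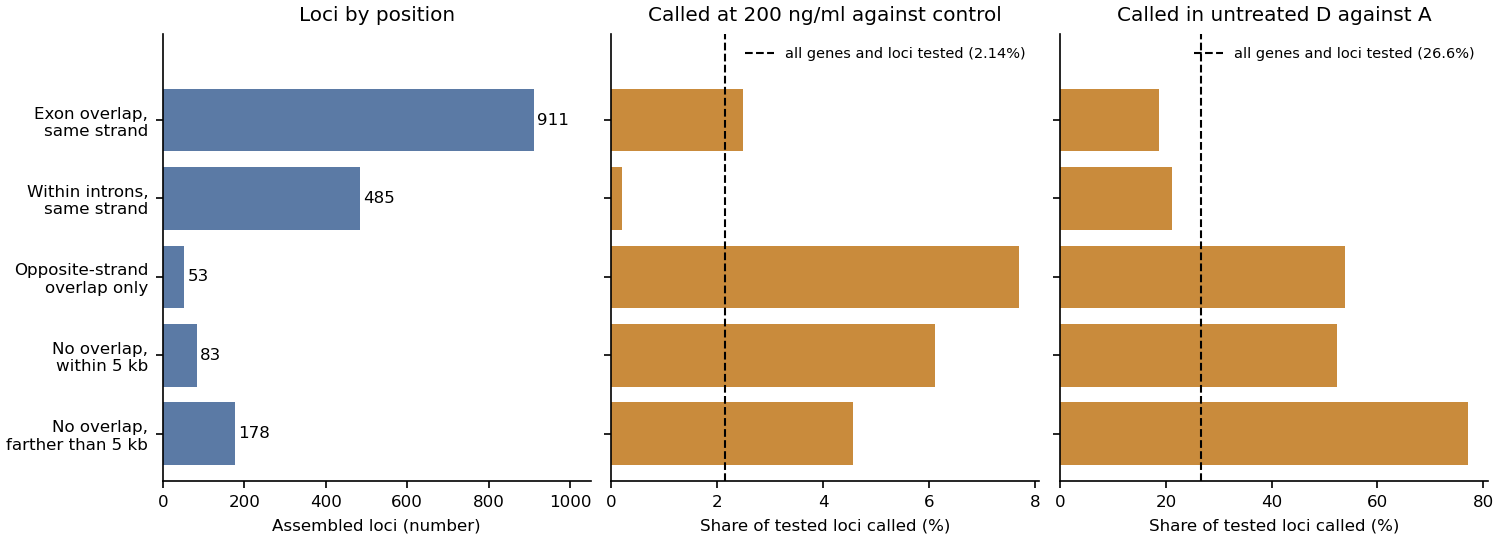
Left, number of assembled loci in each position class relative to annotated genes. Middle and right, share of the tested loci in each class that were called (fold of at least 2 and adjusted p of at most 0.05) at 200 ng/ml against control and between the untreated groups D and A, with the share over all tested genes and loci as a dashed line. Loci that overlapped exons were the largest class at 911, and the class farther than 5 kb from a gene held the highest share called between D and A.

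Start sequences could be read for loci that begin at a known start. RefSeq lists a start on the same strand within 100 bases of the start of 187 loci, of which 168 overlapped exons of a gene in the table, and the 80 loci not looked up in RefSeq are outside this search too. In the RefSeq windows of 300 bases around those starts, 2 of 187 held the ISRE core GAAANNGAAA on either strand (1.07%), against 3.57% of the 35116 RefSeq start windows searched. The palindromic STAT site TTCNNNGAA was found in 15 of 187 (8.02%) and in 7.66% of those windows. The 2 patterns were searched separately, and a match to one was allowed to overlap a match to the other. Of the loci among these 187 that were higher at 200 ng/ml, 4 in number, 1 held a STAT site and none held the ISRE core. The 250 bases upstream of 5 of these starts are shown 5′ to 3′ (RefSeq, GRCh38.p14), all of loci whose values are given below. They are not all such loci, so the share with a match among the 5 has no meaning. The windows of MSTRG.34516, MSTRG.9351 and MSTRG.14103, also described further on, are not shown and hold neither pattern. The windows are chr17:43006534-43006783 on the plus strand for IFI35, chr20:48024969-48025218 plus for LOC105372639, chr9:88113451-88113700 plus for LOC124902203, chr2:74958880-74959129 minus for LOC105374809 and chr13:90880065-90880314 plus for LOC105370311. Capitals mark a STAT site in the first and an ISRE core in the last; the 3 between have no capitals because neither pattern occurs in them.
MSTRG.28664 (IFI35): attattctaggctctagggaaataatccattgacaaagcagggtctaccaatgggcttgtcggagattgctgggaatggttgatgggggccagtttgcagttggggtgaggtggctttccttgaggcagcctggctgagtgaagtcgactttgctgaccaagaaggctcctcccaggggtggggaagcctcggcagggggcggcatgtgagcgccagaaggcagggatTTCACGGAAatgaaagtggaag
MSTRG.42615 (LOC105372639): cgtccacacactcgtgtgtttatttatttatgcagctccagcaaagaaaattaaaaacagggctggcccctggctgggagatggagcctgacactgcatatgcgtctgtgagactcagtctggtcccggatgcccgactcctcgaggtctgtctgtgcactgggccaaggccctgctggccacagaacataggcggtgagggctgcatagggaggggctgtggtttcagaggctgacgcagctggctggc
MSTRG.73174 (LOC124902203): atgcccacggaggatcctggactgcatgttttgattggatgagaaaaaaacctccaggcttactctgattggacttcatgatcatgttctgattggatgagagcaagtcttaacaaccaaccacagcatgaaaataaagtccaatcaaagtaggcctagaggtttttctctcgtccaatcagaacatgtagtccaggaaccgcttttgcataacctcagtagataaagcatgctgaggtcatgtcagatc
MSTRG.36643 (LOC105374809): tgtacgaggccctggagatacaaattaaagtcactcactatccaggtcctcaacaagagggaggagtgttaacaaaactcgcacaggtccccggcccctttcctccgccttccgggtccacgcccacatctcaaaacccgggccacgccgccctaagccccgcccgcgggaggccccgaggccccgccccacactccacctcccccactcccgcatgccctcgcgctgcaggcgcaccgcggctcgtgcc
MSTRG.18747 (LOC105370311): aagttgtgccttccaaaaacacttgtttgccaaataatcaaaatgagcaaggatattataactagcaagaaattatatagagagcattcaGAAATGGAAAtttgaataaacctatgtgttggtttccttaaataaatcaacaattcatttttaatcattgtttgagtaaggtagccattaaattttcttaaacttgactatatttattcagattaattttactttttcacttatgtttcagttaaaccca
The STAT site of IFI35 begins 22 bases upstream of the RefSeq start, and the ISRE core of LOC105370311 begins 160 bases upstream. MSTRG.18747, which starts there, is an intergenic locus listed at 0 in all 6 samples of A-C and at 14 to 25 estimated counts in D-F, and it was chosen after its values were seen. Its 200 ng/ml samples F1 and F2 stood at 14 and 22 counts, within the range of the controls D1 and D2 at 14 and 25. A match describes letters in a window and no more.

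Per sample the estimated counts summed to between 10517448 and 16056734, and the assembled loci took 1.03% to 1.56% of them, with the 2 highest shares in C1 and C2. Both line sets expressed squamous epithelial keratin KRT5, at 914 to 1248 TPM (a level scaled for transcript length and library size) in A-C and 237 to 263 in D-F, while the 10 squamous markers summed to 2763 to 3384 TPM in A-C and 1239 to 1549 in D-F. Of those 10, KRT5, KRT14, KRT17, TP63 and SFN were higher in A-C without overlap, PKP1 was lower at 7.33 to 13.5 TPM against 35.5 to 46.1, and the other four overlapped. KRT14 was at 41.9 to 49.2 TPM in A-C but at most 0.254 in D-F. Among 3 endothelial markers CDH5 was at 15.2 to 21.7 TPM in A-C and at most 0.156 in D-F, PECAM1 was listed at 0 in A-C and at up to 0.576 in D-F, and VWF was at most 0.414 in any sample. The leukocyte marker CD3E was listed at 0 in every sample. The interferon-stimulated genes moved with treatment: of a list of 66, 58 were higher at 200 ng/ml and 56 at 20 ng/ml, none was lower at either dose, and the median log2 difference was 2.56 at the high dose against -0.01 over all genes tested. In bulk RNA, fewer cells of a kind and less RNA per cell cannot be told apart.

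On the TPM scale, which corrects for length, the median assembled locus had a mean level of 4.11 over the 12 samples, beside 20.4 for the median protein-coding gene and 1.97 for the median annotated lincRNA under the same count floor. The highest level belonged to MSTRG.43103, at chr21:8434944-8447629, which overlaps an annotated copy of the 5.8S ribosomal RNA gene on its strand and averaged 752 TPM. MSTRG.63074 (chr6:144922277-144930003, plus strand), 69243 bases downstream of UTRN, the gene of the muscle cytoskeleton protein utrophin, came next at 307 TPM. MSTRG.2571 ran opposite RPE65, a retinoid isomerase of the visual cycle, and averaged 240 TPM. MSTRG.28776 covers the U2 spliceosomal RNA cluster on chromosome 17 and averaged 212 TPM. In descending order, the other six of the highest 10 were MSTRG.56796 at 118 TPM, MSTRG.36955 at 83.3, MSTRG.42315 over the ubiquitin ligase gene ITCH at 82.1, MSTRG.15934 over the chromatin protein gene HMGA2 at 63.2, MSTRG.49400 opposite PQLC2L at 58.8 and MSTRG.12780 over the snoRNA host TAF1D at 56.8. The ranks rest on averages over unlike line sets. MSTRG.2571 stood at 1220 estimated counts in E1 and at 6520 to 29583 in the other samples, so a single library is far below the rest there.

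The first question of the design is which loci changed under IFNα. At 200 ng/ml, averaging the response of both line sets, 40 of the 1667 loci that passed the filter on low counts were called (2.40%), beside 2.14% of all 19944 genes and loci tested. Of these 32 were higher, against 1.58% higher among all features tested, and 8 were lower, against 0.552%. Loci without a same-strand gene made up 14 of the 32 higher ones. By class, 5.50% of tested loci without a same-strand gene, 2.49% of loci over exons and 0.210% of intronic loci were called, the last being 1 locus of 476. After scaling for library size, treated samples lay entirely above their controls in both line sets in 29 of the 32 higher loci. The 32 were picked by a test on these same samples, so that separation is no further support. The calls used the edgeR quasi-likelihood test with Benjamini-Hochberg adjustment, and 19 of the 40 kept their call when each of the 8 libraries compared was left out in turn.

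A locus on chromosome 5 gave the largest counts among the higher loci in A-C. MSTRG.56796 (chr5:85523075-85647845, minus strand) runs opposite the annotated transcript AC026700.1 and overlaps 2 further assembled loci. Its estimated counts were 615 and 696 in the controls A1 and A2, 5535 and 6059 at 20 ng/ml, and 5218 and 5013 at 200 ng/ml. In D-F it stood at 13 and 8, then 27 and 20, then 39 and 55 counts. All treated samples were above their controls in both sets, but the sets themselves did not overlap at any dose. The fitted rise at 200 ng/ml was 10.4-fold in C against A (log2 3.38 ± 0.15 SE, edgeR adjusted p = 1.43e-06) and 5.53-fold in F against D (2.47 ± 0.27, adjusted p = 0.000533), and the difference between those responses did not pass (log2 -0.91 ± 0.34, adjusted p = 0.205). MSTRG.56797, within its span, went from 276 and 258 counts in A to 2356 and 1865 in C, and stood at 8 and 4 in D and 8 and 18 in F. MSTRG.56802, also within it and named after its values were seen, went from 38 and 39 in A to 267 and 224 in C, and was listed at 0 in 5 of 6 samples of D-F. The 3 share ground on 1 strand, so the authors' estimates may have divided the same reads among them.

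MSTRG.36955 (chr2:94763032-94784462, minus strand), 1916 bases upstream of the processed pseudogene AC073464.2, had the opposite balance between the sets. Estimated counts were 4338 and 3592 in the controls D1 and D2, 11382 and 12878 at 20 ng/ml and 11982 and 13950 at 200 ng/ml. In A-C they were 26 and 28, then 66 and 65, then 99 and 65. Every treated sample exceeded its controls, and D-F was above A-C throughout. The response to 200 ng/ml was nearly equal in size in the 2 sets, at 4.01-fold in A-C (log2 2.00 ± 0.21) and 4.09-fold in D-F (2.03 ± 0.14), with a difference of 0.03 ± 0.32 between them and edgeR adjusted p = 7.29e-06 for their average, while the sets differed by log2 7.06 ± 0.20 when untreated. AC073464.2 itself had 80 and 55 counts in D, 196 and 182 in E and 184 and 195 in F, against at most 2 in A-C. Within D-F it was called higher at 200 ng/ml (log2 1.81 ± 0.40, edgeR adjusted p = 0.0353). Its average over both sets was not called (log2 -0.63 ± 0.70).

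Loci far from genes followed on chromosomes 13, 20, 10 and 9. MSTRG.18787 (chr13:90839667-90863852, plus) stood at 4 and 12 counts in A, 25 and 29 in B, 52 and 70 in C, 1467 and 809 in D, 1397 and 1680 in E and 1818 and 1398 in F. In A-C the doses were ordered without overlap, whereas in D-F the 200 ng/ml sample F2 was below D1 in raw counts. The average rise was log2 2.08 ± 0.29 (edgeR adjusted p = 0.00207). MSTRG.42615 (chr20:48025180-48058993, plus), whose start lies 39 bases from that of RefSeq LOC105372639, had 366 and 439 counts in D, 527 and 494 in E and 566 and 547 in F, beside 4 to 22 in A-C. Its treated samples exceeded the controls in D-F, by 1.73-fold at 200 ng/ml (log2 0.79 ± 0.19), which is under the fold required. In A-C the fitted rise was log2 2.18 ± 0.36 at those low counts, and the average of both sets was 2.80-fold (log2 1.49 ± 0.20, edgeR adjusted p = 0.00176). MSTRG.7092 (chr10:4746384-4764390, minus), 22239 bases from the aldo-keto reductase gene AKR1E2, had 16 and 18 counts in A against 32 and 42 in C, and 244 and 217 in D against 287 and 280 in F. It rose 2.12-fold on average (log2 1.08 ± 0.15, edgeR adjusted p = 0.00219), and without C2 the fitted value was 0.92, under the fold required. MSTRG.73174 (chr9:88113666-88122290, plus), at the start of LOC124902203, went from 200 and 153 counts in D to 593 and 676 in F, with 0 to 13 in A-C. Within D-F its rise was 4.49-fold (log2 2.17 ± 0.34, edgeR adjusted p = 0.00493). The average over both sets was log2 2.03 ± 0.53 (edgeR adjusted p = 0.0437), and this call was lost without A2, C1, D1, D2, F1 or F2, with an adjusted p of 0.325 and a value of 1.51 without C1.

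**Figure D2:**
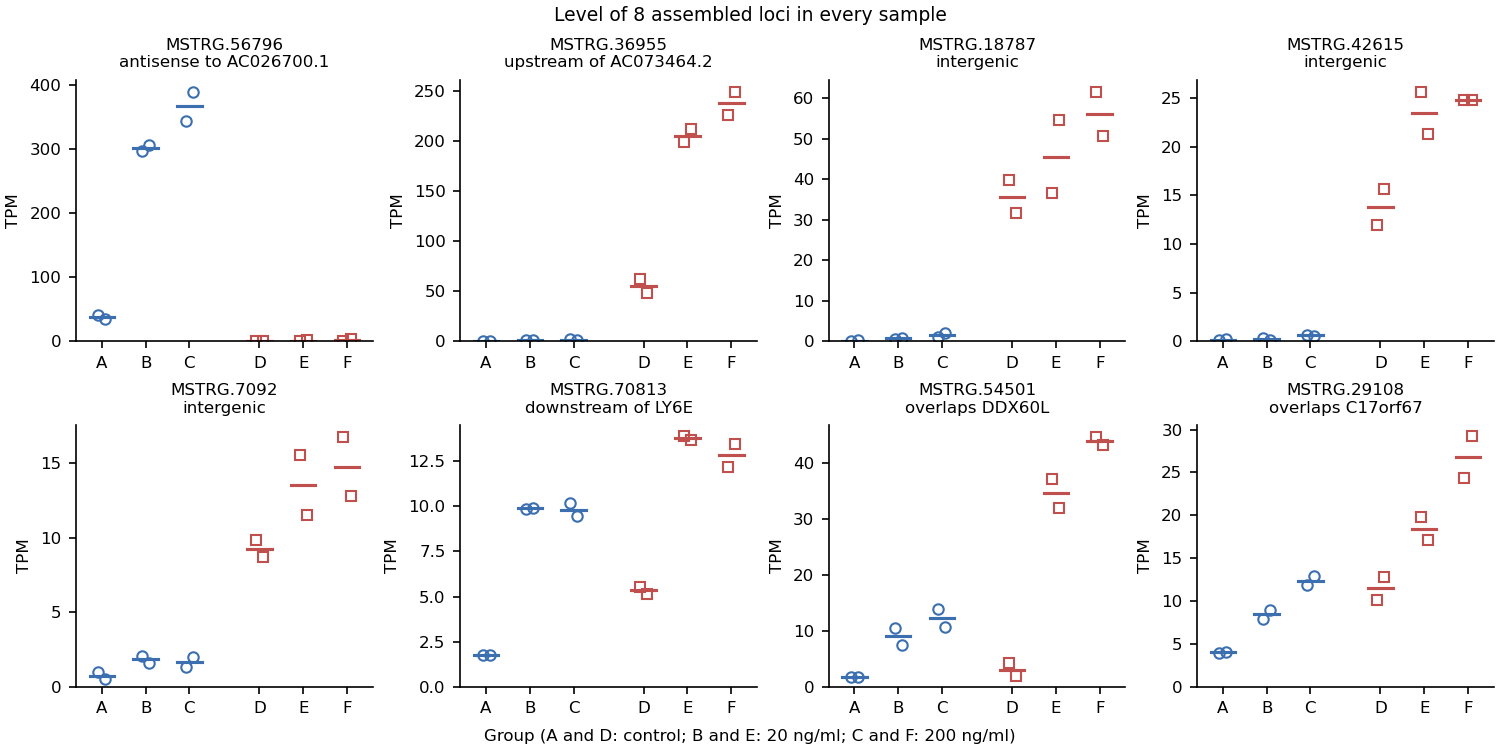
TPM of 8 assembled loci in each sample by group, with open circles for A-C, open squares for D-F and a bar at the mean of the 2 replicates. MSTRG.56796 was near 0 in D-F and MSTRG.36955 near 0 in A-C, and the treated groups stood above their controls in the panels of MSTRG.70813, MSTRG.54501 and MSTRG.29108 in both sets.

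On or within 5 kb of the 66 interferon-stimulated genes lay 10 assembled loci, of which 6 were called higher at 200 ng/ml. MSTRG.70813 (chr8:143025847-143029481, plus), 2015 bases downstream of LY6E, which encodes a membrane-anchored protein, was the clearest of these. Its estimated counts were 36 and 46 in A, 196 and 233 in B, 190 and 152 in C, 124 and 121 in D, 232 and 250 in E and 208 and 236 in F. Treated and control samples did not overlap in either set, and in D-F the raw counts at the 2 doses did. The rise at 200 ng/ml was 5.55-fold in A-C and 2.27-fold in D-F, with log2 1.83 ± 0.10 on average (edgeR adjusted p = 2.86e-06). LY6E itself rose by log2 1.11 ± 0.12 (edgeR adjusted p = 0.000468).

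MSTRG.28664, which begins at IFI35, an interferon-induced leucine zipper protein, had 15 and 3 counts in A, 46 and 21 in C, 7 and 2 in D and 37 and 29 in F. Its average rise was log2 2.68 ± 0.55 (edgeR adjusted p = 0.0144), beside 2.90 ± 0.14 for IFI35, and its call was lost without D2 or F1 (adjusted p up to 0.0611, without D2). MSTRG.67398, over ZC3HAV1, an antiviral zinc finger protein that binds viral RNA, went from 49 and 53 counts to 86 and 75 in A-C and from 51 and 44 to 118 and 119 in D-F. That is log2 1.35 ± 0.16 (edgeR adjusted p = 0.000896), where ZC3HAV1 moved by 0.79 ± 0.06, under the fold required. The processed pseudogene AC018644.1, which the locus also overlaps on its strand, was itself called higher (log2 1.09 ± 0.20, edgeR adjusted p = 0.00986).

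MSTRG.26089, over NLRC5, which drives MHC class I genes, had 26 and 33 counts in A, 57 and 171 in B and 54 and 193 in C, so its treated replicates lay far from each other. In D-F it went from 15 and 16 to 32 and 24. The average was log2 1.85 ± 0.47 (edgeR adjusted p = 0.0368), lost without any of A1, A2, C2, D1, D2, F1 and F2 (up to 0.117, without F1). MSTRG.15 lies 2994 bases downstream of ISG15, the ubiquitin-like modifier, and 2024 bases upstream of AGRN. It had 3 and 0 counts in A, 16 and 14 in C, 0 and 0 in D and 8 and 14 in F, which is at least 4.58-fold higher in F than in D when 3 counts per library stand for the floor. Its adjusted p of 0.0169 for the average was lost without D1, D2 or F2 (up to 0.0631, without F2, in edgeR). MSTRG.38695 starts 165 bases from the start of IFIH1, a sensor of viral RNA, on the other strand, within the gene GCA. It moved by log2 1.70 ± 0.44 (edgeR adjusted p = 0.0407), lost without A1, C1, C2, D1, D2, F1 or F2 (up to 0.130, without D2), while GCA stood at -0.12 ± 0.18 and IFIH1 at 2.75 ± 0.07.

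Loci at the other four were not called. MSTRG.21890 at IFI27 had 0 to 18 counts in every sample although IFI27 rose by log2 2.98 ± 0.07. MSTRG.8725 at IFIT2 had 5 and 10 counts in A, 25 and 34 in C and 0 in 5 of the 6 samples of D-F. MSTRG.2698, at IFI44L and 3651 bases from IFI44, was listed at 0 in every sample but B2, with 138 counts, and C2, with 270, while IFI44L had 3349 and 2832 counts in the same samples. MSTRG.44726 runs over APOL6 and had 3 counts in A1, 1080 in A2, 2874 in C1 and 74 in C2, a wider spread between replicates than between doses. APOL6 had 2993, 2455, 1679 and 5549 counts in the same 4 samples. Summed, the pair stood at 2996 and 3535 in A, 4592 and 5449 in B and 4553 and 5623 in C. In D-F the sums were 5441 and 5396 in D, 6329 and 7511 in E and 7791 and 7588 in F. The summed counts of treated samples were thus above those of their controls in both sets.

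Outside that list, 2 loci over the helicase genes DDX60L and DDX60, both induced by interferon, were among the 10 with the largest rise. MSTRG.54501 (chr4:168474892-168479776, minus) lies within the span of DDX60L. Its counts were 23 and 31 in A, 141 and 117 in B and 174 and 114 in C. In D-F they were 63 and 30 in D, 413 and 389 in E and 508 and 505 in F. Treated samples were above controls without overlap, by 7.06-fold in C and 13.6-fold in F (log2 3.29 ± 0.23 on average, edgeR adjusted p = 2.27e-05). DDX60L moved by 2.72 ± 0.05. MSTRG.54493 in DDX60 rose by 2.70 ± 0.23, beside 2.51 ± 0.07 for DDX60. MSTRG.70918 over PARP10, an ADP-ribosyltransferase, went from 0 and 5 counts in A to 35 and 21 in C and from 9 and 4 in D to 14 and 16 in F, and its call was lost without C1, D2, F1 or F2 (adjusted p up to 0.0797 in edgeR, without D2). MSTRG.29108 (chr17:56823658-56833923, minus), over C17orf67, had 105 and 140 counts in A, 195 and 239 in B, 252 and 238 in C, 242 and 340 in D, 375 and 342 in E and 456 and 584 in F. Treated samples were above controls without overlap in both sets, and in D-F the doses were also apart. It rose by log2 1.29 ± 0.13 (edgeR adjusted p = 0.000207), while C17orf67 itself had at most 67 counts in any sample. MSTRG.69244 on chromosome 8 runs opposite IL7, the lymphocyte growth factor interleukin 7. It had 50 and 26 counts in D, 98 and 105 in F and 112 to 167 in A-C, where control and treated samples overlapped. Its average was log2 1.05 ± 0.20 (edgeR adjusted p = 0.00963), and it fell under the fold required without C2 or D2 (down to 0.84).

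Loci that overlapped a tested gene on their own strand could be set beside that gene. Of the 18 higher loci of this kind, the gene with the most counts was itself called higher for 6 (DDX60L, DDX60, IFI35, PARP10, NLRC5 and RIMS2) and was not called for 12. Reads of the overlapping part can be counted for either feature, so the locus and its gene are not independent measurements. MSTRG.6375 in the dynein gene DNAH14 was at 0 counts in A and B and at 23 and 16 in C, with 20 to 53 in D-F, while DNAH14 stood at log2 0.10 ± 0.09. The rise in C over A was at least 8.52-fold, and the call on the average was lost without A2 (edgeR adjusted p = 0.0519). MSTRG.18772 (chr13:90838549-90847961, minus), which overlaps MSTRG.18787 on the other strand, was likewise at 0 in A and B, with 5 and 10 counts in C and 133 to 175 in D-F. Its samples C1 and C2 were thus the only ones of A-C with reads, at least 3.38-fold above A (edgeR adjusted p = 0.00723 for the average).

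Of the 32 higher loci, 10 are given only as a group, with average log2 differences from 1.04, for MSTRG.30173 over the chromatin regulator SMCHD1, to 2.65, for MSTRG.54485 opposite the annexin gene ANXA10. The others lay over SRGAP2, the integrin gene ITGA5, NETO2, SLC44A1, TLK2, the synaptic gene RIMS2 and VNN1, and opposite HCRTR2. Within this group of 10, the call that was kept without each library was that of MSTRG.73611 over SLC44A1, at 13 and 18 counts in A, 33 and 43 in C, 35 and 19 in D and 46 and 40 in F.

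None of the 5 lower loci with a tested same-strand gene had that gene called on the average of both sets. MSTRG.34516 lies at the start of SH3YL1 and had 106 and 29 counts in A, 0 and 0 in B, 1 and 0 in C, 73 and 50 in D, 28 and 19 in E and 0 and 0 in F. Its 200 ng/ml samples were at the floor in both sets, at least 16.4-fold under D in F (edgeR adjusted p = 0.00313 for the average). SH3YL1 had 290 to 563 counts in all samples and a difference of log2 0.01 ± 0.10. MSTRG.9351 in R3HCC1L was at 23 and 24 counts in A and 28 and 36 in B, then 0 and 0 in C, at least 5.90-fold lower, but at 42 to 61 in all of D-F. MSTRG.14103 in APOLD1 showed the reverse, with 46 and 42 counts in D and 0 in the 4 treated samples of D-F, at least 11.7-fold lower in F, and 14 to 39 in A-C. Within D-F APOLD1 itself was also called lower, from 494 and 407 counts in D to 121 and 146 in F (log2 -1.43 ± 0.29, edgeR adjusted p = 0.0180). In A-C APOLD1 moved by log2 0.46 ± 0.33. MSTRG.254 in the transcription activator gene CAMTA1 was at 0 in F1 and F2 only, against 23 and 11 in D. For MSTRG.9351, MSTRG.14103 and MSTRG.254 the edgeR adjusted p of the average was 0.00167, 0.00434 and 0.0120. Averaged over both sets, their genes moved by log2 0.31 ± 0.13, -0.49 ± 0.22 and -0.06 ± 0.14.

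The fifth, MSTRG.62940, overlaps PEX7, the receptor that carries enzymes into peroxisomes. Its counts were 111 and 11 in A, 78 and 88 in B, 0 and 0 in C, 10 and 98 in D, 8 and 2 in E and 2 and 9 in F, and those of PEX7 in the same order were 2 and 90, 5 and 12, 71 and 58, 104 and 6, 52 and 92, and 73 and 91. Samples high for one were low for the other, between replicates as well as between doses. Summed, the pair ranged from 58 to 114 counts over the 12 samples. Its edgeR adjusted p of 0.0447 was lost without A1, C1, C2, D2, F1 or F2 (up to 0.148, without D2). The 3 lower loci without a same-strand gene had most of their counts in D-F and few in A-C, where the largest fitted falls lay. MSTRG.45651 (chr3:5686551-5699363, minus) had 8 and 6 counts in A and 0 in B and C, against 1642 to 2862 in D-F. MSTRG.51705 had 4 and 3 in A and 0 and 0 in C against 253 to 369 in D-F, and its call was lost without any one of the 8 libraries (adjusted p up to 0.172 in edgeR, without C1). MSTRG.18367, 1856 bases from LINC00355 and head to head with it, had 16 and 20 counts in A, 2 and 0 in C and 128 to 178 in D-F. Its average call (edgeR adjusted p = 0.0210) was lost without A2, C2, D1, D2 or F1 (up to 0.0833, without C2).

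**Figure D3:**
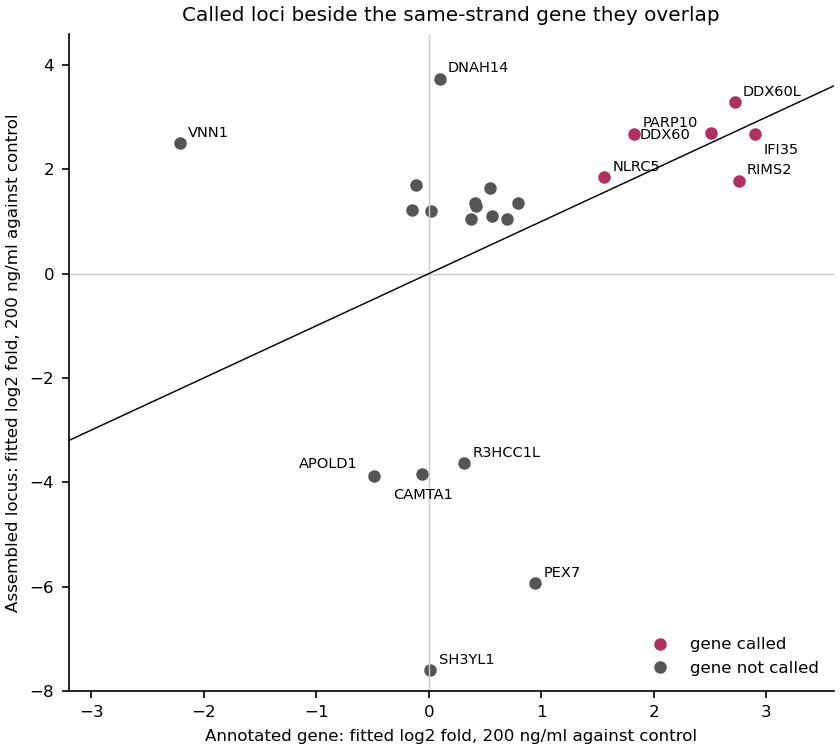
Fitted log2 difference at 200 ng/ml against control of each called locus that overlaps a tested gene on its strand (vertical) against that of the gene (horizontal), 23 loci, with a line of equality. Loci whose gene was also called lie near the line, at the upper right, and the 5 lower loci lie far under it over genes between -0.49 and 0.95. Values of loci with a group at 0 depend on the prior count of the fit.

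At 20 ng/ml 20 loci were called (1.20% of those tested, against 1.15% of all features). They divided into 12 higher, beside 0.963% of all features, and 8 lower, beside 0.186%. The 20 and 200 ng/ml comparisons use the same control samples, so their values are given side by side only. MSTRG.56796 moved by log2 2.35 ± 0.17 at 20 ng/ml and 2.92 ± 0.15 at 200 ng/ml, MSTRG.36955 by 1.64 ± 0.13 and 2.02 ± 0.12, MSTRG.54501 by 2.89 ± 0.23 and 3.29 ± 0.23, and MSTRG.70813 by 1.88 ± 0.10 and 1.83 ± 0.10. On the strand opposite one another, MSTRG.55920 (chr5:53338002-53369954, plus) and MSTRG.55919 (chr5:53300546-53339150, minus) overlap by their starts. MSTRG.55920 had 0 and 0 counts in D, 5 and 8 in E and 12 and 6 in F, and 12 and 14 in A against 48 and 33 in B and 45 and 20 in C. MSTRG.55919 had 0 and 0 in D, 17 and 21 in E and 12 and 0 in F, and 42 and 41 in A against 75 and 117 in B and 91 and 113 in C. MSTRG.55920 was called at both doses (edgeR adjusted p = 0.0164 and 0.00625) and MSTRG.55919 at 20 ng/ml (0.0298), where 200 ng/ml gave 0.0503. MSTRG.37016 in ANKRD36C was one of the 8 lower loci, at 41 and 34 counts in A, 1 and 2 in B and 14 and 26 in C. In D-F it went from 99 and 45 to 39 and 49 at 20 ng/ml, where the groups overlapped, and its call was lost without B1 or B2 (edgeR adjusted p up to 0.0636, without B1). MSTRG.12796 over AMOTL1, a gene of cell junctions, had 43 and 58 counts in A, 1 and 3 in B and 150 and 214 in C, so that the doses lay on opposite sides of the control. Its call was kept only without D2 and had an adjusted p up to 0.459, without D1 (edgeR). For the pair on chromosome 5, at 20 ng/ml the first call was lost without A2, D1, D2 or E2 (up to 0.0715, without E2) and the second without any one of the 8 libraries (up to 0.0953, without D2).

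Setting the doses against each other called 2 loci (0.120%), as against 0.0451% of all features, and 114 of 1667 loci had an unadjusted p of at most 0.05, beside 1846 of all 19944 features. MSTRG.72869 in PTAR1, a prenyltransferase subunit gene, was at 0 and 2 counts in E1 and E2, at 106 and 134 in D and 96 and 95 in F, and at 170 to 208 in A-C. Only the 20 ng/ml samples of D-F were low. It was higher at 200 than at 20 ng/ml (edgeR adjusted p = 0.00937), while PTAR1 itself had 780 and 760 counts in E beside 784 and 749 in F. MSTRG.9351, described above as at 0 in C, was the other (adjusted p = 0.0179), and its call was lost without B2, E1, E2 or F2 (up to 0.0610, without E2). With the replicate number as a block neither was called.

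Untreated, the 2 line sets differed far more than the doses did. In D against A, 471 loci were called (28.3% of those tested), beside 26.6% of all features. They were 275 higher in D, beside 15.7%, and 196 lower, beside 11.0%. By class the share was 77.1% of the 175 tested loci farther than 5 kb from a gene, 53.8% of loci with opposite-strand overlap only, 52.4% of loci within 5 kb, 21.2% of intronic loci and 18.6% of loci over exons. Annotated lincRNAs gave 40.7% and protein-coding genes 25.6% in the same fit. Squamous marker totals, KRT14, PKP1 and CDH5, given above, also separated the sets, in both directions, and their part in this result was not tested. Of the 258 called loci with a tested same-strand gene, that gene was called in the same direction for 135, in the opposite direction for 2 and not at all for 121.

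**Figure D4:**
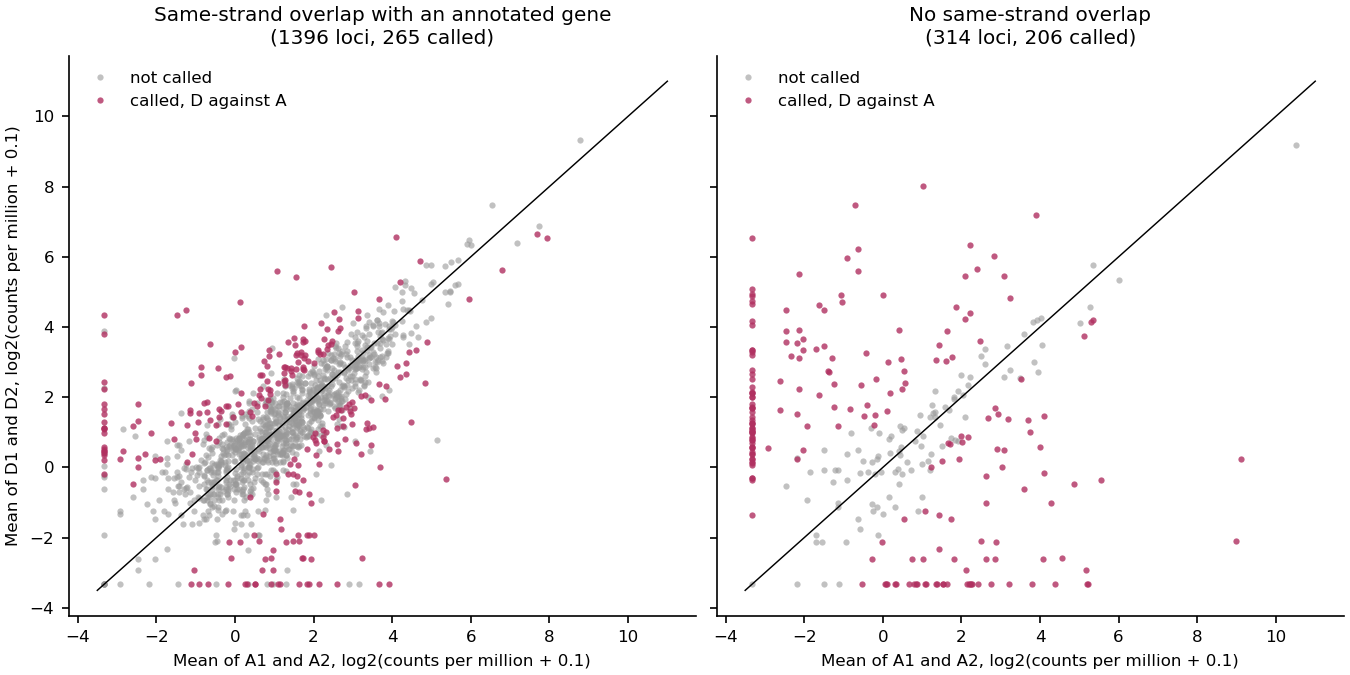
Mean of the untreated samples of D against that of A for each assembled locus, as log2 of CPM (counts scaled to library size) plus 0.1, with loci that overlap a gene on their strand on the left and the others on the right. Points in dark red were called. Of 1396 loci on the left 265 were called, and of 314 on the right 206, many along the edges where a set is at 0.

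Presence in a single set was counted separately, as every sample of a set at 10 counts or more with every sample of the other at 3 or fewer. By that rule 37 loci were found in A-C only, beside 1.32% of all genes and loci with a summed count of at least 60, and 61 in D-F only, beside 1.78%. Loci farther than 5 kb from a gene supplied 15 of the 37 and 40 of the 61. As a share, 30.9% of that class, 2.09% of loci over exons, 8.61% of annotated lincRNAs and 2.21% of protein-coding genes met the rule.

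The largest difference in D over A belonged to MSTRG.44641 (chr22:34220825-34502131, plus), 11563 bases from Z68323.1. It had 1346 and 1472 counts in D, 1203 and 1466 in E and 1253 and 1461 in F, and 0 in all 6 samples of A-C, which puts D at least 423-fold above A. On chromosome 13 lay 2 of the 8 highest, MSTRG.18730 (chr13:90287372-90324903, plus), at least 157-fold above A, and MSTRG.18792 (chr13:89079863-89163199, minus), with 279 to 448 counts in D-F and 0 in A-C. MSTRG.18730 also moved with dose where it was present, from 571 and 469 counts in D to 953 and 1142 in E and 1337 and 1487 in F (3.39-fold, log2 1.76 ± 0.15, edgeR adjusted p = 0.00123 within D-F). Since it was at 0 in A-C, the average over both sets did not call it. The other five were MSTRG.53778, MSTRG.11272, MSTRG.24981 and MSTRG.72355, all far from genes, and MSTRG.55036 over PDCD6 and AHRR. All had at most 4 counts in any sample of A-C. MSTRG.72355 had 20 counts in F1 against 272 to 493 in the rest of D-F.

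In the other direction MSTRG.63073 (chr6:144881462-144927160, minus) had 439 and 599 counts in A, 539 and 680 in B and 528 and 431 in C, and 0 in D-F, so that A was at least 188-fold above D. Its start overlaps that of MSTRG.63074 on the plus strand, which had 3371 to 9050 counts in A-C and 4 to 26 in D-F. UTRN, the nearest gene of both, differed by log2 0.43 in D over A. MSTRG.61140 (chr6:66258961-66277733, plus) lies 164052 bases from any annotated gene and had 367 to 741 counts in A-C and 0 in D-F. MSTRG.49400, spread over chr3:157667423-157909603, had 4043 to 7409 counts in A-C, 4 in D1 and 0 in the remaining 5. MSTRG.36643, at the start of LOC105374809 and opposite the DNA polymerase epsilon subunit gene POLE4, had 53 to 144 counts in A-C and 0 in D-F. MSTRG.55787, MSTRG.64716 and MSTRG.49099 over ANKUB1 were also among the 8 lowest.

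The last comparison asked whether the response to 200 ng/ml differed between the sets, by the interaction term of the fit. It was called for 15 loci (0.900% of those tested, against 0.998% of all features). In 4 the response in D-F was above that in A-C, beside 0.622% of features, and in 11 it was below, beside 0.376%. At an unadjusted p of at most 0.05 there were 188 of 1667 loci, beside 3539 of all 19944 features. Of the 15, 8 rose in A-C and fell in D-F by their fitted values, and 6 had a group at 0.

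MSTRG.40645 (chr2:219752564-219791981, plus), an intergenic locus 14627 bases from AC009502.1, had the lowest adjusted p. Its counts were 517 and 621 in A, 713 and 796 in B, 601 and 517 in C, 799 and 869 in D, 455 and 502 in E and 382 and 398 in F. In D-F every treated sample was below the controls, while in A-C the raw counts of A and C overlapped. After scaling for library size the responses were log2 0.39 ± 0.09 in A-C and -0.77 ± 0.09 in D-F, and they differed by -1.16 ± 0.13 (edgeR adjusted p = 0.00439). MSTRG.37667 on chromosome 2, antisense to EPB41L5 and over TMEM185B, went from 37 and 42 counts in A to 138 and 111 in C, a 4.18-fold rise, and from 635 and 678 in D to 686 and 627 in F, at 1.25-fold. These differed by log2 -1.74 ± 0.23 (edgeR adjusted p = 0.00867).

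MSTRG.43103, the ribosomal RNA locus, had 5451 and 6802 counts in A, 17998 and 11202 in B, 34020 and 18659 in C, 7064 and 12574 in D, 4817 and 8115 in E and 5004 and 5418 in F. C stood above A by 5.66-fold (log2 2.50 ± 0.38), and F stood at 0.67 of D (-0.58 ± 0.36). The difference of -3.09 ± 0.52 (edgeR adjusted p = 0.0252) was lost without A1, A2, D2, F1 or F2 (up to 0.102, without F2). The libraries were depleted of rRNA, and what is left of it was not measured in any other way here. Without this locus the assembled loci took 0.984% to 1.34% of counts, still highest in C2 and next in C1. MSTRG.70813 downstream of LY6E rose in both sets and by more in A-C (difference log2 -1.29 ± 0.20, edgeR adjusted p = 0.0169, lost without A2, D1, F1 or F2, up to 0.0708 without F1), where LY6E differed by 0.12 (adjusted p = 0.865).

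**Figure D5:**
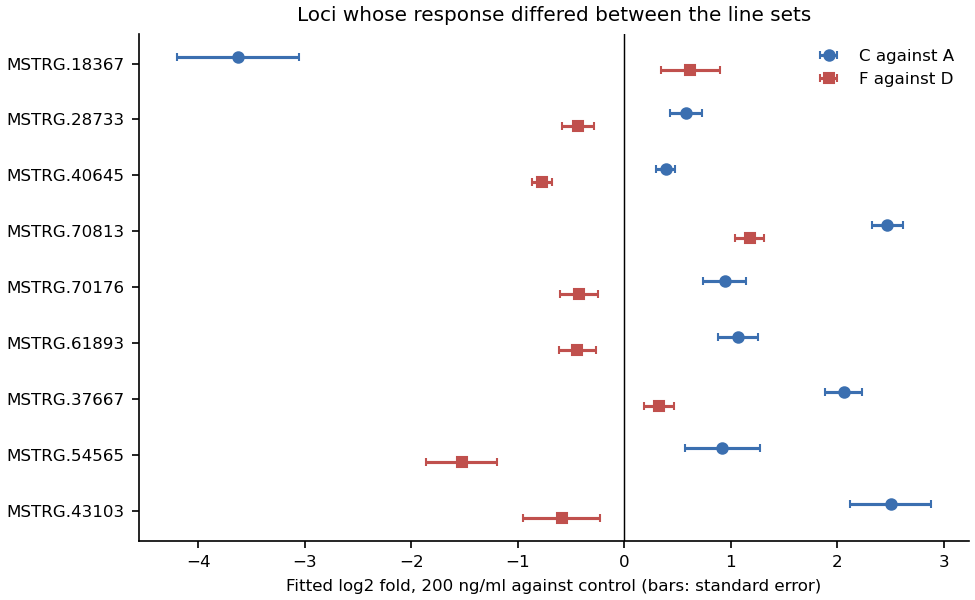
Fitted log2 difference at 200 ng/ml against control in each line set for the 9 called loci with no group at 0, with circles for C against A, squares for F against D and bars for the standard error. MSTRG.70813 and MSTRG.37667 lay above 0 in both sets, and MSTRG.18367 was the only one of the 9 with the lower value in A-C.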

How the data were processed

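Per the labels, the submitters' processing notes name Trimmomatic 0.36, HISAT2 2.1.0, StringTie 1.3.3b and GRCh38.p10 without their roles, and the annotation release is not given in the sources used here. The deposited values are whole-number estimated counts, TPM and FPKM per gene and transcript. Reads shared by overlapping features are divided by the assembler, so locus counts over genes are estimates. The loci, lists and named-locus rule were chosen with earlier results of these data known. Named loci were the 10 most raised and 10 most lowered called at 200 ng/ml (8 were lowered), the 10 highest by mean TPM, the 8 most different each way between D and A, up to 10 by adjusted p in the set-by-dose interaction, loci on or within 5 kb of a listed interferon-stimulated gene, and the annotated neighbours. One of the loci this rule names is not reported here.

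Counts were fitted with edgeR 4.0.16 (R 4.3.3) by the quasi-likelihood test, with TMM scaling, filterByExpr, 6 groups and all 12 samples. A call needed a fold of at least 2 and a Benjamini-Hochberg adjusted p of at most 0.05 over the 19944 features tested; 43 loci failed the filter. Where every library of a group was at 0, a fold is a bound against 3 counts per library; the ± values are standard errors of the fit. Simulated data with 50 changed genes per fold size recovered 18 at a fold of 2 and 41 at a fold of 8, with 6 false calls of 142. Position classes used gene bodies from the position column and exons of GENCODE release 29, in which 56007 of 58174 annotated genes had the position given in the table. No sequence was read by genome coordinates. RLE scaling, DESeq2 1.42.0, no filter, a replicate block, the compared groups only, unadjusted p, a floor of 120 counts and leaving out each library were tried. TPM was used for levels and FPKM, with counts, for transcript lengths. Same-numbered samples did not deviate together (r between -0.03 and 0.05).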

Additional observations from a re-analysis of the deposited data

Results flagged for a closer look

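The response to 200 ng/ml differed between the line sets, by the test of the difference itself, for 15 assembled loci, and each is given as the log2 response in D-F minus that in A-C. Without a group at 0, the differences were -1.16 for MSTRG.40645, -1.74 for MSTRG.37667, -1.29 for MSTRG.70813, -1.51 for MSTRG.61893, -3.09 for MSTRG.43103, -1.37 for MSTRG.70176, -2.45 for MSTRG.54565 and -1.01 for MSTRG.28733, and 4.25 for MSTRG.18367, whose C2 was at 0. MSTRG.61893 (chr6:100149284-100164959) went from 50 and 66 counts in A to 85 and 96 in C and from 284 and 282 in D to 174 and 159 in F. MSTRG.70176 on chromosome 8 went from 60 and 55 to 94 and 74 and from 722 and 608 to 393 and 400. MSTRG.54565, opposite MARCH1, went from 35 and 50 to 43 and 75 and from 185 and 267 to 60 and 65. MSTRG.28733, in an intron of GPATCH8, went from 208 and 208 to 250 and 220 and from 236 and 259 to 151 and 141.

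In the other six a group was at 0 in both replicates, so the fitted size depends on the prior count of the fit and is no bound. These values were 7.65 for MSTRG.9351, -8.67 for MSTRG.14103, 14.56 for MSTRG.2582, -7.70 for MSTRG.6375, 5.34 for MSTRG.45651 and -5.82 for MSTRG.18772. MSTRG.2582, in ANKRD13C, had 34 and 23 counts in A, 10 and 16 in F and 0 in the other 8 samples. MSTRG.18772, intergenic on chromosome 13, had 0 counts in A and B, 5 and 10 in C and 133 to 175 in D-F. Leaving out 1 library at a time, the call was kept throughout for 4 of the 15 (MSTRG.40645, MSTRG.37667, MSTRG.9351 and MSTRG.14103), and the highest adjusted p for the other loci lay between 0.0616 for MSTRG.18367, without F2, and 0.163 for MSTRG.28733, without F2. No group held 4 or more samples, so outlying samples were not tested for.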

How the results depend on the processing

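The number of loci called at 200 ng/ml was 40 and became 107 with unadjusted p, 49 with DESeq2, 38 with the replicate block and 28 to 52 when libraries were left out singly (28 without D2, 52 without C1). The loci changed too: with the block 10 of the 40 lost their call, and its 38 were 27 higher and 11 lower. Those that lost it include MSTRG.15, MSTRG.18367, MSTRG.38695, MSTRG.62940 and MSTRG.70918. At 20 ng/ml the number was 20, became 73 with unadjusted p, and ranged from 13 (without B1) to 20. The block took the call from 4 of those 20. Between the doses 2 became 46 with unadjusted p, 4 without the filter, 0 with the replicate block, 1 with the compared groups only, 8 with DESeq2, and 1 to 5 leaving out libraries (5 without C1, 4 without F1, 1 without B2 or F2). Between D and A 471 became 401 with the block and 388 to 410. For the different responses 15 became 147 with unadjusted p, 4 with the replicate block, 9 with the compared groups only, 28 with DESeq2, and 4 to 23 leaving out libraries (4 without A2, 5 without F2, 8 without C2 or D1, 9 without F1, 23 without C1). RLE scaling and the floor of 120 counts left every count within 1.5 times. A cause was not tested for any of these. Same-numbered samples share only a number (r of their deviations from -0.03 to 0.05). No fitted value of a named locus that was called changed sign. With 10 kb in place of 5 kb, 144 loci lay near a gene without overlap and 117 farther. At 2 replicates a group, low counts limit what can be called.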
